A study of Mus musculus with 8 samples.

Results

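Proteasome subunits and the factors that assemble or regulate the proteasome were followed in lymph node cells of B10.BR mice, an inbred strain, before and after immunization. Members were taken from the array annotation. They are the probe sets with exactly 1 gene symbol that begins with Psma, Psmb, Psmc or Psmd, or that is Psme3, Psme4, Psmf1, Psmg1 or Psmg2, without the immunoproteasome genes Psmb8, Psmb9 and Psmb10. This gave 78 of the 22690 probe sets on the array, for 41 genes. RNA came from naive mice (3 arrays), from mice 7 days after immunization (3 arrays) and from mice 28 days after immunization (2 arrays). The cells had been sorted by flow cytometry, and 10 µg of total RNA per sample was labelled with biotin for Affymetrix mouse arrays. The labels name no immunogen, no sorted population, and neither the age nor the sex of the mice. Whether the replicates are different animals is not given either, so p-values measure only the spread between these arrays.

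The 26S proteasome is the protease that degrades proteins tagged with ubiquitin. Its 20S core is a barrel of outer rings of alpha subunits, which gate the entrance, and inner rings of beta subunits, which carry the active sites. The 19S regulatory particle caps the barrel: its base ATPases unfold substrates and its other subunits bind ubiquitin chains and cut them off. Lymphocytes that divide make and turn over much protein, and immune cells can exchange the catalytic beta subunits for those of the immunoproteasome, which cuts peptides for MHC class I.

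Values are log2 ratios. The reference of each probe set appears to be its own median across the arrays, or a shared lower limit if the median falls under it. A value of 0 marks that reference, a difference of 1 is a 2-fold change, and neither absolute levels nor the levels of different genes can be compared. A probe set was tested where its ratio reached 1 on at least 2 arrays. Of the 78 members 69 passed this filter, for 40 of the 41 genes, as did 13042 of the 22626 non-control probe sets. Only 2 members passed through arrays of a single group, Psma5 1454940_at through naive arrays and Psmb1 1420052_x_at through day 7 arrays. The 9 members left out were the only probe set of Psma8, a testis form of an alpha subunit, 2 each of Psmd11 and Psmf1, and 1 each of Psmc1, Psmd7, Psmd9 and Psme4. Their log2 differences lay between -0.32 and 0.46 for day 7 minus naive.

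Technical controls split the arrays almost by group. The median of 18 spike-in probe sets, which detect transcripts added from outside the cells, stood at -1.16 (log2 ratio) on naive replicate 1 and between -1.70 and -1.03 on the day 7 arrays, but between 0.64 and 1.41 on the other naive arrays and the day 28 arrays. All day 7 arrays were thus low and both day 28 arrays high, and only the naive group held both kinds. The Gapdh log2 ratio at the transcript's 3' end minus that at its 5' end was taken as a sign of RNA quality. It ran from 0.17 to 0.57 in the naive group, from -1.18 to 1.17 in the day 7 group and from -1.09 to 0.02 in the day 28 group. Each end has a reference of its own, so only shifts between arrays can be read, not which end was stronger. Values computed within the low spike-in arrays (naive replicate 1 and day 7) and within the high ones (naive replicates 2 and 3 and day 28) are therefore given, as are values without naive replicate 1.

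Day 7 was compared with naive to ask whether proteasome transcripts differed 1 week into the response. On the naive arrays the median over the 69 tested members was -0.04, -0.10 and -0.28 (log2 ratio, replicates 1 to 3), on the day 7 arrays 0.70, -0.03 and 0.37, and on the day 28 arrays -0.05 and -0.20. Day 7 replicates 1 and 3 stood clearly above every naive and day 28 array, while day 7 replicate 2 was close to naive replicate 1 on this measure.
The median log2 difference of the members was 0.58 at day 7 against naive, beside 0.11 over all 13042 probe sets tested, and 54 of the 69 differences were above 0 (78.3%, against 56.0% of all tested). In limma, 0 of the 69 passed an adjusted p under 0.05, where 1.17% of all probe sets tested passed (1.06% higher and 0.107% lower). At an unadjusted p under 0.05, 16 members were higher (23.2%, against 12.4% of all tested) and 0 were lower (3.08% of all tested). The groups did not overlap for 15 members that were higher at day 7 (21.7%, against 13.4% of all tested) and for 3 that were lower (4.35%, against 8.61%). Among these 3 is Psma5 1454940_at, which passed the filter only through naive arrays. Over all 78 members, tested or not, the median difference was 0.50, beside 0.02 over all non-control probe sets. Mitosis markers, described further on, were also higher on the day 7 arrays. Their part in the proteasome values was not tested, and a change in the share of a cell type and a change in RNA per cell cannot be told apart.

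**Figure D1:**
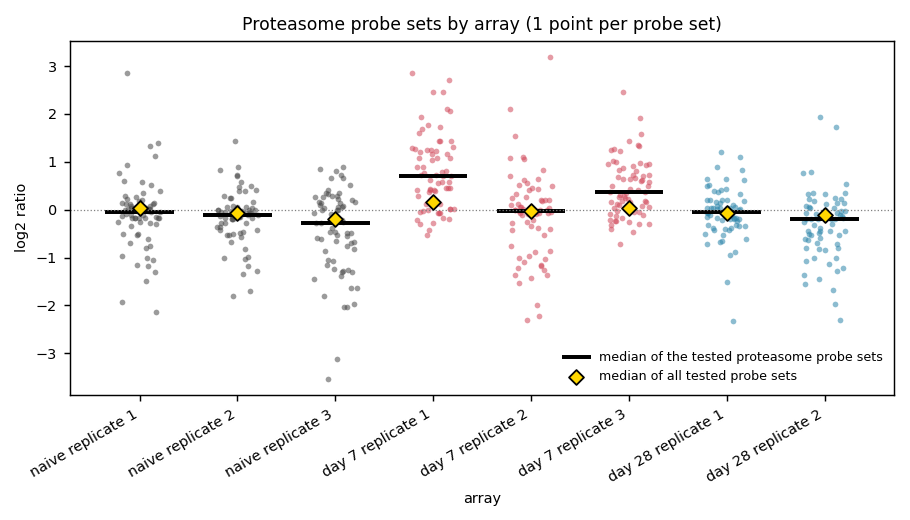
Log2 ratio (vertical axis) of the 69 tested proteasome probe sets on each of the 8 arrays (horizontal axis), with 1 point per probe set, the bar at their median and the diamond at the median of all 13042 tested probe sets. The bar lies at 0.70 and 0.37 on day 7 replicates 1 and 3, above the diamond there, and at or below 0 on the other 6 arrays.

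The members' median depended on single day 7 arrays. It was 0.29 without day 7 replicate 1 and 0.96 without day 7 replicate 2, and within the low spike-in arrays (day 7 against naive replicate 1 alone) it was 0.51, beside a median near 0 over all tested. Without naive replicate 1, 9 of the 69 members rose (13.0%, against 11.6% of all tested) and 0 fell (against 1.62%), so the members' share was near the background (13.2% in either direction). This setting leaves only high spike-in naive arrays against low spike-in day 7 arrays. With the spike-in set as a term, the median was also 0.51. Only the naive group holds both spike-in kinds, so the term again compares day 7 with naive replicate 1 alone. It is therefore no separate check and cannot remove a technical effect. Those 9 were probe sets of Psma3, Psma5 (2), Psmb4, Psmc2, Psmd6, Psmd14, Psme3 and Psme4. With array weights, which give less weight to arrays that deviate, 20 of 69 rose (29.0%, against 16.9% of all tested) and 0 fell (against 5.57%, or 22.5% in either direction). These weights did not fully converge, and day 7 replicate 3 had 9.50, against 0.75 and 0.85 on day 7 replicates 1 and 2. That fit thus rests largely on a single day 7 array. Among the 20 is Psmb1 1420052_x_at, which passed the filter only through day 7 arrays. With each gene taken as the mean of its probe sets, 0 of the 40 genes passed (1.75% of 7825 genes did), and the median difference was 0.65.

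**Figure D2:**
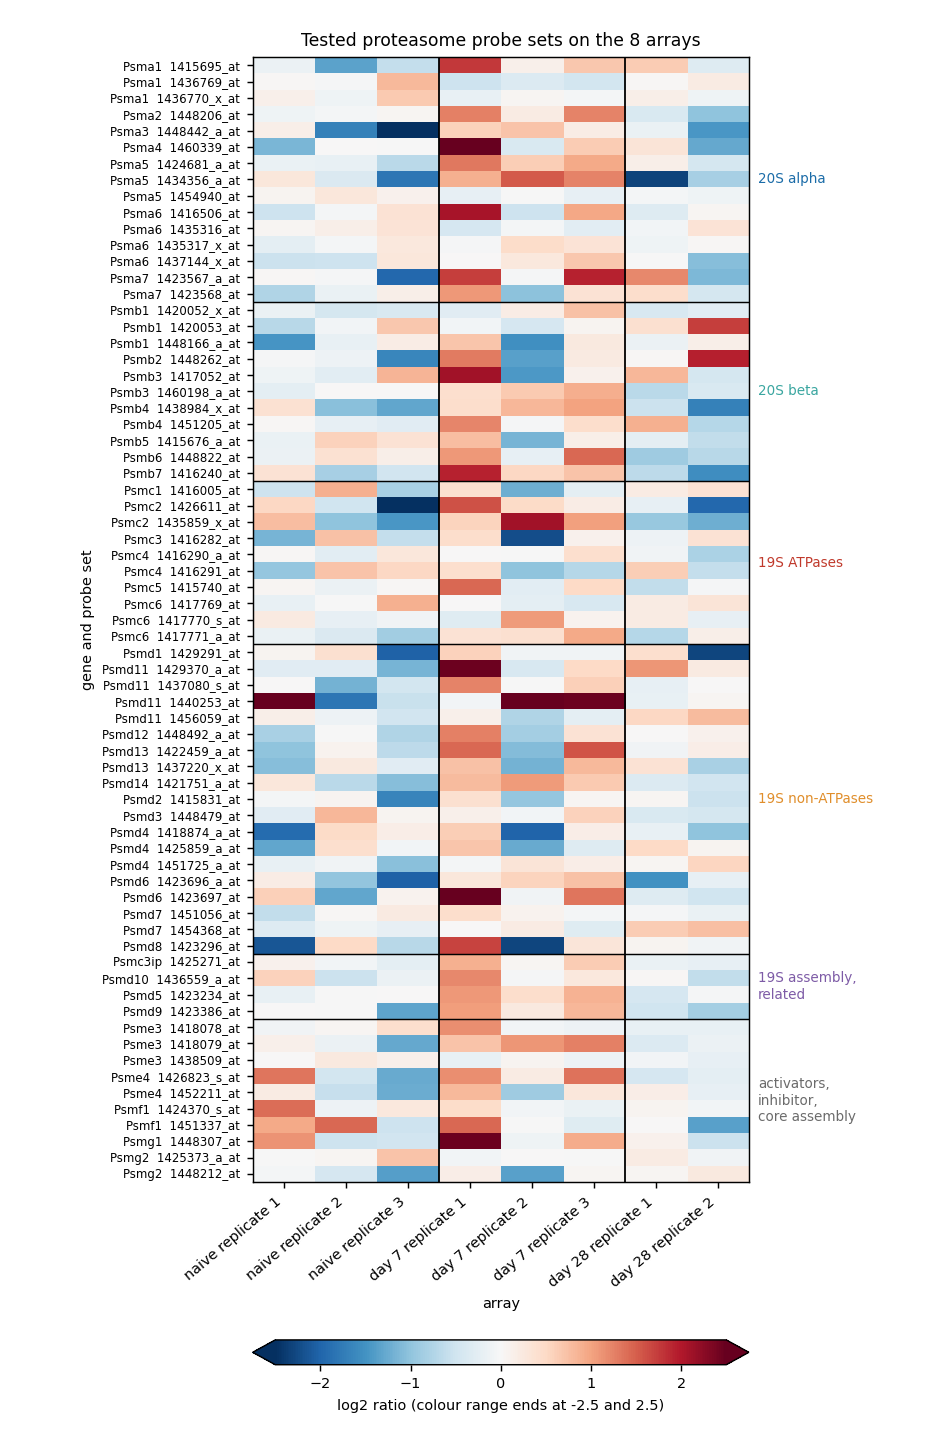
Log2 ratio (colour, red above 0 and blue below) of the 69 tested proteasome probe sets (rows, ordered by subunit group) on the 8 arrays (columns, ordered naive, day 7, day 28). Red is densest on day 7 replicate 1, where 57 of the 69 values are above 0, against 29 and 52 on day 7 replicates 2 and 3. On the naive arrays 32, 21 and 27 are above 0 (replicates 1 to 3), and on the day 28 arrays 32 and 21.

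The alpha ring of the core had 15 tested probe sets for 7 genes. Their median log2 difference at day 7 was 0.90, the highest of the 6 subunit groups, and 11 of 15 were above 0. Psma5, the alpha subunit also called alpha 5, held the smallest p of this ring. Its probe set 1424681_a_at read -0.17, -0.19 and -0.67 in naive cells, 1.32, 0.62 and 0.95 after 7 days and 0.15 and -0.44 after 28 days. The 3 day 7 arrays lay above the other 5, and the difference from naive was 1.30 ± 0.32 (SE, 3 arrays per group), or 2.47-fold, with limma's adjusted p = 0.123, which did not pass. It passed without naive replicate 1 (1.39, adjusted p = 0.0481). Against naive replicate 1 alone, which is what the spike-in term amounts to, the difference was 1.13.
Psma5 1434356_a_at had 0.28, -0.35 and -1.80 in naive cells, 0.88, 1.54 and 1.25 after 7 days and -2.31 and -0.82 after 28 days, again with day 7 above both other groups. Its difference was 1.85 ± 0.61 (adjusted p = 0.211). Psma5 1454940_at went the other way, with 0.07 to 0.29 in naive cells and -0.21 to 0.00 at day 7, a difference of -0.29. It passed the filter only through its naive arrays, so its direction cannot serve as evidence of a fall. A pseudogene of Psma5 is listed in the RefSeq table, and whether these probe sets also detect it was not tested.

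Other alpha subunits at day 7 showed the same mixture. Psma3 had 0.15, -1.70 and -3.53 in naive cells and 0.57, 0.71 and 0.18 at day 7. Its groups did not overlap but naive replicate 1 nearly reached day 7 replicate 3, and the difference was 2.18 ± 0.85 (adjusted p = 0.287). Psma2 had -0.11 to 0.05 in naive cells, 1.26, 0.20 and 1.23 after 7 days and -0.38 and -1.01 after 28 days, so the 3 groups were in separate ranges, and day 7 minus naive was 0.93 ± 0.37 (adjusted p = 0.291). Psma4, with 2.71, -0.38 and 0.63 at day 7, overlapped with the naive arrays (-1.15 to 0.00), and its difference was 1.37 ± 0.82 (adjusted p = 0.448). Psma1, Psma6 and Psma7 had several probe sets with differences from -0.71 to 1.55, from -0.41 to 0.90 and from 0.40 to 1.86.

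The beta ring had 11 tested probe sets for 7 genes, with a median log2 difference of 0.65 at day 7 and 9 of 11 above 0. The catalytic subunits are Psmb5 (cuts after hydrophobic residues), Psmb6 (after acidic residues) and Psmb7 (after basic residues). Psmb7 had 0.36, -0.83 and -0.48 in naive cells, 1.93, 0.52 and 0.71 after 7 days and -0.65 and -1.55 after 28 days. Day 7 lay above the other groups, with a difference from naive of 1.37 ± 0.50 (adjusted p = 0.264). Psmb6 had -0.15 to 0.39 in naive cells, 1.08, -0.21 and 1.44 after 7 days and -0.89 and -0.70 after 28 days. Day 7 replicate 2 lay just below the naive range, and the difference was 0.65 ± 0.45 (adjusted p = 0.498). Psmb5 had -0.17, 0.58 and 0.35 in naive cells and 0.77, -1.16 and 0.15 at day 7, and its difference was -0.34 ± 0.51 (adjusted p = 0.761). The day 7 arrays of Psmb5 spanned the whole naive range. The RefSeq table also lists pseudogenes of these 3 genes.

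Structural beta subunits included the ring's smallest p, that of Psmb3 1460198_a_at. It had -0.25 on naive replicate 1 and 0.00 on the other naive arrays, 0.42, 0.65 and 0.90 after 7 days, and -0.68 and -0.39 after 28 days. The 3 groups did not overlap, and the day 7 difference was 0.74 ± 0.27 (adjusted p = 0.259). The second probe set of Psmb3, 1417052_at, had 2.10, -1.43 and 0.11 at day 7 and a difference of 0.11 ± 0.85. Psmb4 1438984_x_at had a difference of 1.41 ± 0.52 (adjusted p = 0.263) with groups apart, and Psmb4 1451205_at one of 0.69 ± 0.49. Psmb2 had a difference of 0.65 ± 0.81, and the 3 probe sets of Psmb1 ran from -0.11 to 0.54. The highest was that of 1420052_x_at, which passed the filter only through day 7 arrays.

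**Figure D3:**
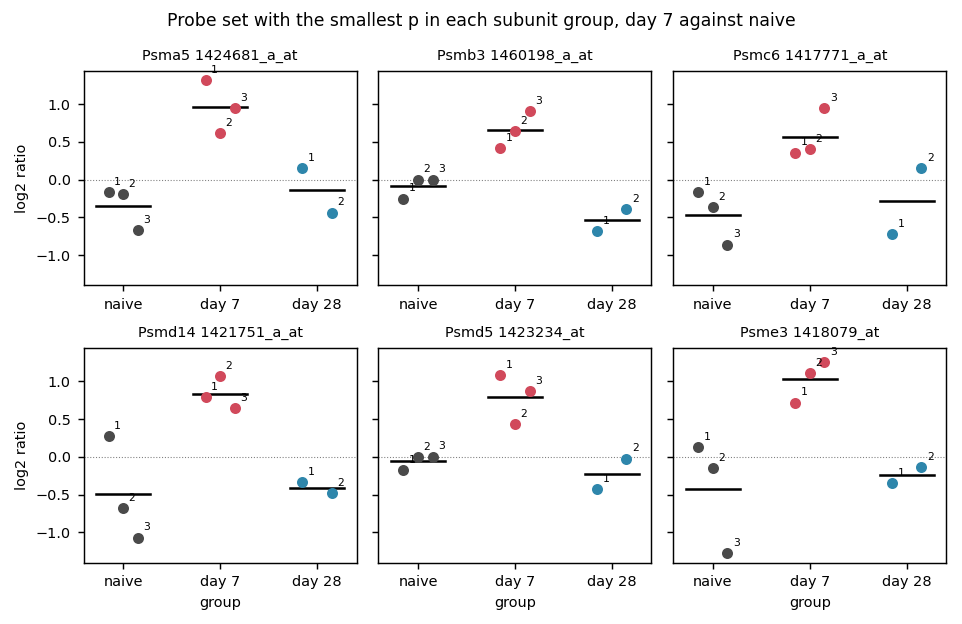
Log2 ratios (vertical axis) by group for the probe set with the smallest p in each of the 6 subunit groups, day 7 against naive, with 1 point per array, labelled by replicate number, and the bar at the group mean. In all 6 panels the 3 day 7 points lie above the 3 naive points, while limma's adjusted p ran from 0.123 to 0.259.

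Proteasome genes are known targets of Nfe2l1, a factor that binds antioxidant response elements, so promoter windows were searched for the core letters TGACNNNGC, on both strands. RefSeq windows (GRCm38.p6) of 250 bases before to 50 after the start were matched for 33 of the 41 genes. A match lay in 6 of their 35 windows (17.1%), against 12.4% of all 32851 windows. The box CCAAT, also on both strands, lay in 13 of 35 (37.1%), against 37.4% of all. The CCAAT share was that of all windows to within 1 percentage point. Matches before the start are shown with up to 10 flanking bases, 5′ to 3′ on the gene's strand, to let the reader see the letters found; capitals mark the match. That of Psmb5 lies at chr14:54618024-54618052, minus strand, that of Psmb6 at chr11:70525338-70525356, plus strand, that of Psmd9 at chr5:123228149-123228177, plus strand, that of Psmc6 at chr14:45329587-45329615, plus strand, and that of Psmd12 at chr11:107479278-107479299, plus strand.
Psmb5: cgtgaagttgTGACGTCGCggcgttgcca
Psmb6: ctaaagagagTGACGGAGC
Psmd9: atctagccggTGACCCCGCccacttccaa
Psmc6: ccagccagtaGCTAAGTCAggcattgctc
Psmd12: tctGCTGTGTCAcatttgcccc
The match reads in the gene's direction in Psmb5, Psmb6 and Psmd9 and on the opposite strand in Psmc6 and Psmd12. The match of the sixth gene, Psme4, does not lie wholly before the start. The median day 7 minus naive difference was 0.71 over the 6 genes with a TGACNNNGC match and 0.68 over the 27 without. For CCAAT it was 0.51 over the 13 genes with a match and 0.80 over the 20 without. Neither split was tested. The RNA of Nfe2l1 itself had a difference of -0.03 ± 0.43 (adjusted p = 0.977). Its protein was not measured, and its part in the proteasome values was not tested.

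The 6 base ATPases, Psmc1 to Psmc6, form the ring that unfolds substrates. Their 10 tested probe sets had a median log2 difference of 0.21 at day 7, and 6 of 10 were above 0. The 2 probe sets of Psmc2 gave nearly the same difference. Psmc2 1435859_x_at had 0.78, -1.01 and -1.45 in naive cells and 0.57, 2.11 and 1.02 at day 7, a difference of 1.79 ± 0.64 (adjusted p = 0.247), and 1426611_at one of 1.78 ± 0.94 (adjusted p = 0.402). Naive replicate 1 overlapped with day 7 in both. Psmc6 1417771_a_at, the smallest p of this ring, had -0.17, -0.37 and -0.86 in naive cells, 0.36, 0.41 and 0.95 after 7 days and -0.72 and 0.15 after 28 days. Its groups were apart at day 7 (1.04 ± 0.36, adjusted p = 0.229), but the other Psmc6 probe sets had differences of 0.30 and -0.45. Psmc1 and Psmc3 each had -0.21, Psmc4 had -0.52 and 0.12, and Psmc5 had 0.58.

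The other 19S subunits had 19 tested probe sets for 11 genes, with a median log2 difference of 0.65 and 18 of 19 above 0. Psmd14, the metalloprotease that removes ubiquitin chains before degradation, had 0.28, -0.68 and -1.07 in naive cells, 0.79, 1.07 and 0.65 after 7 days and -0.34 and -0.48 after 28 days. Day 7 lay above the other 5 arrays, and the difference was 1.33 ± 0.38 (2.51-fold, adjusted p = 0.168). It passed without naive replicate 1, the only low spike-in naive array (1.71 ± 0.30, adjusted p = 0.0158). Against that array alone, which is what the spike-in term amounts to, the difference was 0.56. Psmd6, a structural subunit of the lid, had differences of 1.47 ± 0.59 and 1.57 ± 0.77 by its 2 probe sets (adjusted p = 0.296 and 0.371). Psmd11, a lid subunit that holds base and core together, had 1.43, 1.15 and 1.70 by 3 probe sets and -0.14 by the fourth. Of these, 1440253_at was high on naive replicate 1 (2.85) and on day 7 replicates 2 and 3 (3.19 and 2.46), and between -1.80 and 0.06 on the other 5 arrays.
The ubiquitin receptor Psmd4 had differences of 0.02, 0.02 and 0.58, and the scaffold subunits Psmd1 and Psmd2 had 0.65 ± 0.83 and 0.37 ± 0.56. Psmd8 spanned -2.13 to 0.50 in naive cells and -2.30 to 1.69 at day 7, with a difference of 0.68 ± 1.03. The remaining lid subunits had 0.02 (Psmd3), 0.18 and 0.29 (Psmd7), 0.77 (Psmd12), and 0.49 and 1.17 (Psmd13). None of these passed. Naive and day 7 arrays overlapped for each of them except Psmd4 1451725_a_at, where day 7 was higher.

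The base is put together with the help of chaperones, of which Psmd5, Psmd9 and Psmd10 were measured. Psmd5 had -0.18 on naive replicate 1 and 0.00 on the other naive arrays, 1.09, 0.43 and 0.87 after 7 days and -0.43 and -0.02 after 28 days, and the day 7 arrays lay above the other 5 (0.85 ± 0.29, adjusted p = 0.223). Psmd9 had 0.02, -0.02 and -1.31 in naive cells and 1.05, 0.24 and 0.82 at day 7 (1.14 ± 0.43, adjusted p = 0.277). Psmd10 had a difference of 0.51 ± 0.45 with overlapping groups. Psmc3ip, which encodes a meiotic recombination protein and is a member by its symbol alone, had 0.59 ± 0.30 (adjusted p = 0.39).

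Alternative activators, the inhibitor and the core assembly factors had 10 tested probe sets with a median log2 difference of 0.22 at day 7, and 6 of 10 were above 0. Psme3, also called PA28 gamma, a nuclear activator of the 20S core, had by 1418079_at 0.13, -0.15 and -1.27 in naive cells, 0.72, 1.11 and 1.26 after 7 days and -0.35 and -0.14 after 28 days. Day 7 lay above the other 5 arrays (1.46 ± 0.41, 2.75-fold, adjusted p = 0.16). Psme3 passed by 1418079_at without naive replicate 1 (1.74 ± 0.40, adjusted p = 0.0344), but against that array alone, as with the spike-in term, it had 0.90. Its other probe sets had 0.20 and -0.21. Psme4, the activator PA200, had 1.04 and 0.60, and the inhibitor Psmf1 had -0.44 and -0.25. The chaperone pair that starts the alpha ring, Psmg1 and Psmg2, had 1.05 ± 0.72 for Psmg1, and -0.28 and 0.23 for Psmg2.

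**Figure D4:**
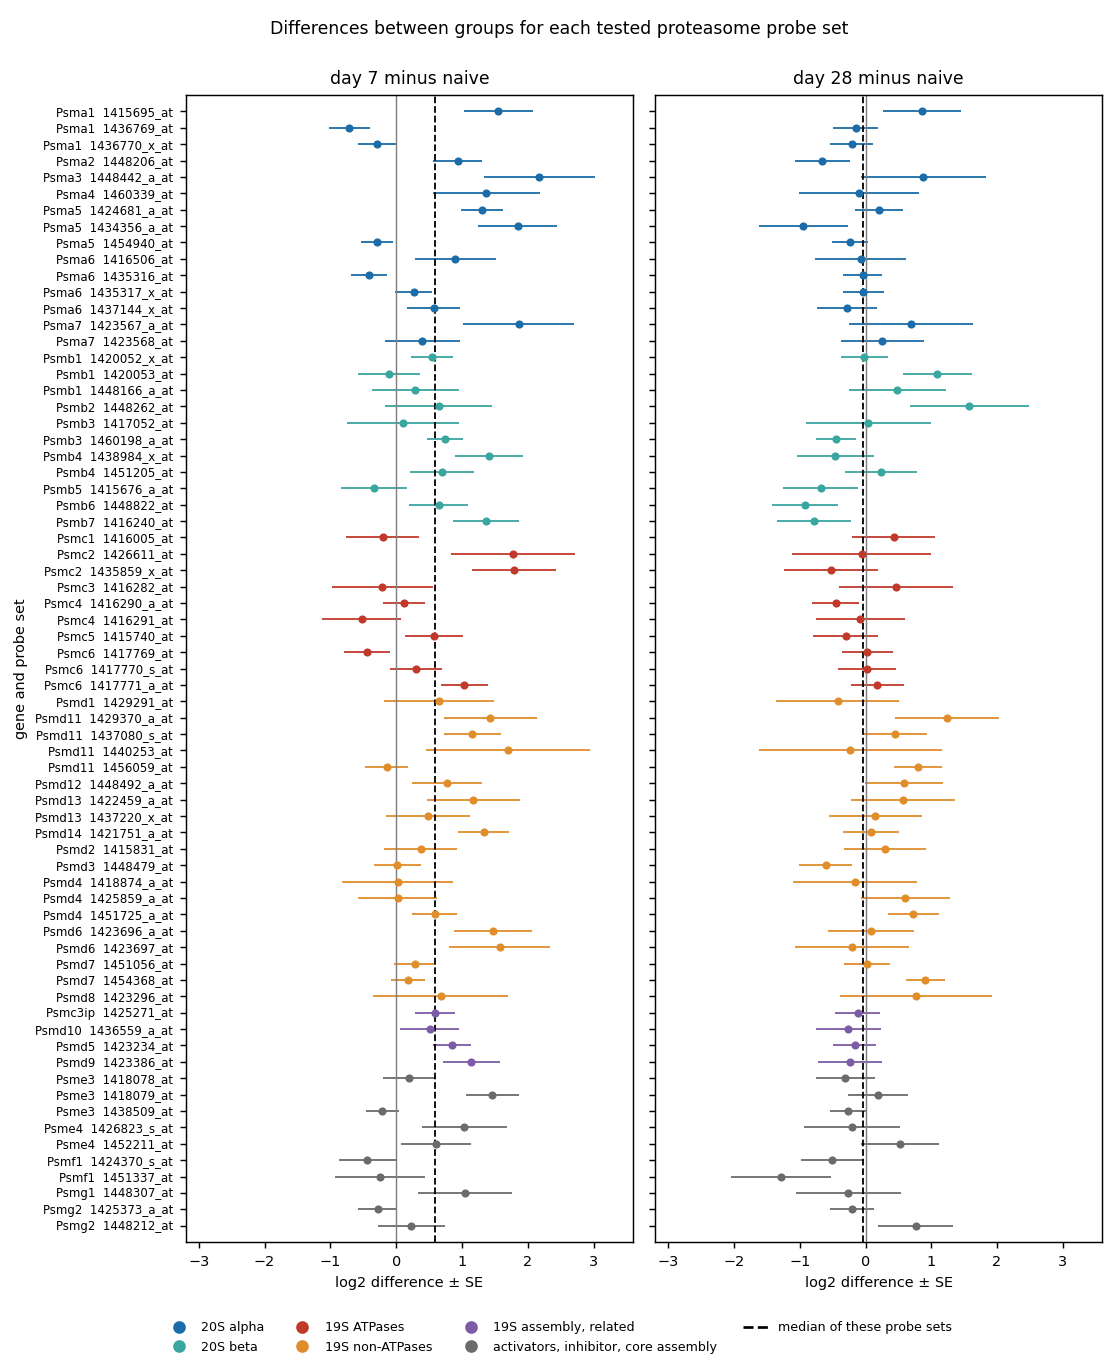
Log2 difference with its SE (horizontal axes) for each of the 69 tested proteasome probe sets (vertical axis, coloured by subunit group), day 7 minus naive on the left and day 28 minus naive on the right; the dashed line is the median of these probe sets. The median lies at 0.58 on the left and -0.05 on the right, and both panels share the naive arrays.

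Probe sets of 1 gene often differed from each other. Of the 19 genes with more than 1 tested probe set, 9 had day 7 differences of both signs, 7 had probe sets more than 1 apart on the log2 scale, and the median gap was 0.65. Psma5 is in both counts only because of 1454940_at, which passed the filter only through naive arrays. The gap was 2.27 for Psma1, where 1415695_at had 1.55 ± 0.53 and 1436769_at had -0.71 ± 0.31 with naive and day 7 arrays apart in opposite directions. It was 0.01 for Psmc2 and 0.10 for Psmd6. Names ending in _x_at or _s_at mark probe sets that can also match other transcripts, and every probe set has a reference of its own, so which one follows the gene's RNA best was not tested.

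**Figure D5:**
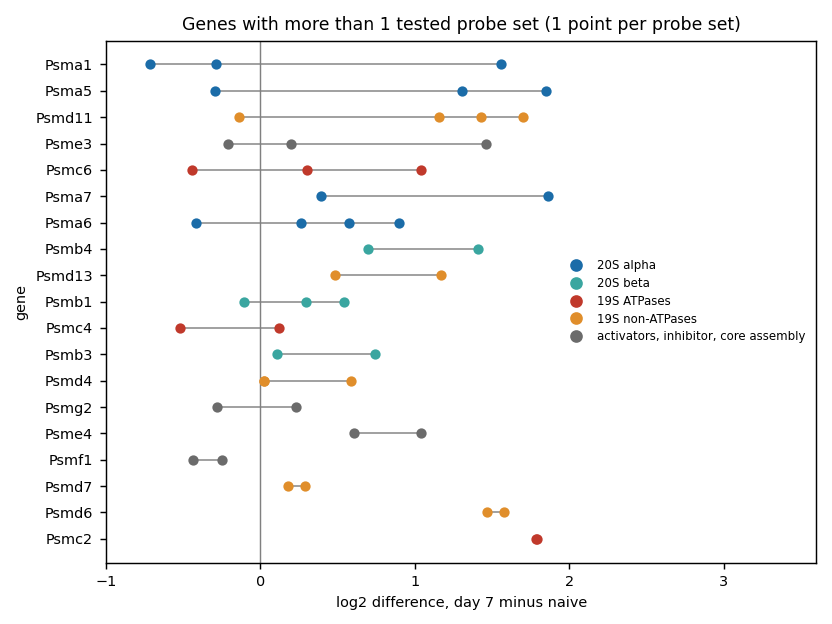
Log2 difference of day 7 minus naive (horizontal axis) of each tested probe set of the 19 genes with more than 1 (vertical axis, ordered by the gap between probe sets). Psma1 spans -0.71 to 1.55 at the top, and the 2 points of Psmc2 at the bottom lie 0.01 apart.

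At day 28 against naive, which asks what differed 4 weeks after immunization, the members were centred near 0. Their median log2 difference was -0.05, the same as over all tested (-0.05), and 32 of 69 were above 0 (46.4%, against 45.5% of all tested). In limma 0 passed (0.322% of all tested did, 0.268% higher and 0.0537% lower), and at an unadjusted p under 0.05, 1 was higher and 0 were lower (3.13% and 3.21% of all tested). Groups did not overlap for 7 members that were higher (10.1%, against 7.76% of all tested) and for 8 that were lower (11.6%, against 9.88%). Psma5 1454940_at, which passed the filter only through naive arrays, is among these 8. Without naive replicate 1, 0 members passed as well (background 0.437%, with 0.360% higher and 0.0767% lower). The members' shares were near the background.
Psmd7 1454368_at, a lid subunit, had -0.33, -0.10 and -0.21 in naive cells, 0.63 and 0.76 at day 28 and -0.30 to 0.20 at day 7, so day 28 lay above the other 6 arrays. Its difference was 0.91 ± 0.29 (SE, 2 arrays against 3, adjusted p = 0.567), and the other tested Psmd7 probe set had 0.02. The catalytic subunits each had a mean below naive, with differences of -0.68 ± 0.57 for Psmb5, -0.92 ± 0.50 for Psmb6 and -0.78 ± 0.56 for Psmb7. None passed, and the smallest adjusted p was that of Psmb6 (0.908). Psmb5 and Psmb6 had day 28 arrays below all 3 naive arrays, and Psmb7 overlapped. Psmb2 had 0.03 and 1.94 at day 28, its difference was 1.58 ± 0.91, and its value was higher on day 28 replicate 2 than on replicate 1. Psmf1 1451337_at had -1.29 ± 0.76 with overlapping groups, Psma2 had -0.66 ± 0.41, Psmb1 1420053_at had 1.09 ± 0.53, Psmc4 1416290_a_at had -0.45 ± 0.35 and Psmd10 had -0.26 ± 0.50.
By group the medians were -0.07 for the alpha ring, -0.02 for the beta ring, -0.02 for the ATPases, 0.30 for the other 19S subunits, -0.20 for the 19S assembly factors and -0.23 for activators, inhibitor and core assembly factors. Within the high spike-in arrays (day 28 against naive replicates 2 and 3) the members' median was 0.05.

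Day 28 against day 7 shares its arrays with both comparisons above, and every day 28 array was high and every day 7 array low in spike-in signal, so spike-in set and group cannot be told apart within these 5 arrays. The members' median log2 difference was -0.56, beside -0.16 over all tested, and 18 of 69 were above 0 (26.1%, against 41.9% of all tested). In limma 0 passed (1.30% of all tested did, 0.422% higher and 0.882% lower). At an unadjusted p under 0.05, 12 were lower (17.4%, against 13.1%) and 2 were higher (2.90%, against 3.47%). Day 28 lay below day 7 without overlap for 24 members (34.8%, against 29.7%) and above it for 5 (7.25%, against 15.2%). Psmb1 1420052_x_at, which passed the filter only through day 7 arrays, is among these 24.
Psma5 1434356_a_at had the smallest p, with a difference of -2.79 ± 0.68 (SE, 2 arrays against 3, adjusted p = 0.105). Next came Psmb3 1460198_a_at (-1.19 ± 0.30, adjusted p = 0.113), Psma2 (-1.59 ± 0.41, adjusted p = 0.121) and Psmb7 (-2.15 ± 0.56, adjusted p = 0.122). In the other groups, Psmc2 1435859_x_at had -2.32 ± 0.71 (adjusted p = 0.172), Psmd5 -1.02 ± 0.32, Psmd14 -1.25 ± 0.43 and Psme3 1418079_at -1.27 ± 0.45. For each of these, both day 28 arrays lay below all 3 day 7 arrays. Among the members above 0 were Psmd11 1456059_at (0.94 ± 0.37) and Psmd7 1454368_at (0.73 ± 0.29), also with groups apart.
With the spike-in term, which rests on the naive arrays here, the median was -0.32, beside 0.03 over all tested, and 0 of all probe sets passed. The differences were then -1.43 for Psma5 1434356_a_at, -0.31 for Psmc2 1435859_x_at, -0.10 for Psmd14 and -0.43 for Psme3 1418079_at, while Psmb3 1460198_a_at had -1.45 and Psmd5 -1.20. Without the term, the median was -0.91 without day 7 replicate 2 and -0.22 without day 28 replicate 2. Without naive replicate 1, which enters this comparison only through the estimate of the spread, 3 of 69 members fell (4.35%, against 6.21% of all tested, 5.35% lower and 0.859% higher). They were Psma5 1434356_a_at, Psmb4 1438984_x_at and Psmc2 1435859_x_at. With array weights 12 fell (17.4%, against 9.87% of all tested) and 0 rose (against 2.11%, or 12% in either direction). With only these 2 groups in the fit 1 fell (Psma5 1434356_a_at, 1.45%, against 3.86%) and 0 rose (against 0.667%, or 4.53% in either direction). With gene means 0 of 40 genes passed in this comparison (1.71% of all genes did) and 0 at day 28 against naive (0.524%).

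Genes that work with the proteasome but are not members were described from lists. The immunoproteasome genes Psmb8, Psmb9 and Psmb10, which replace Psmb5, Psmb6 and Psmb7, and Psme1, a subunit of the activator PA28, each had 1 tested probe set, and 0 of 4 passed in limma in any comparison (0 of 4 also at an unadjusted p under 0.05). At day 7 against naive their differences were -0.49 ± 0.35, -0.06 ± 0.38, -0.80 ± 0.53 and -0.60 ± 0.81, so the sign was negative for all 4, and the difference between these genes and the members was not tested. Day 7 replicate 2 had the lowest value of the 8 arrays for each of the 4, from -1.97 for Psme1 to -0.69 for Psmb8. For Psmb9 and Psme1 the negative sign rests on that array, and without it the day 7 mean would lie above the naive mean. Psmb8 and Psmb10 stay below naive without it.
The partner list of ubiquitin and proteasome factors had 25 genes with 46 tested probe sets. At day 7, 1 rose and none of the other 45 passed (1.17% of all tested passed), with a median of 0.52. The 1 was Zfand5 1416085_s_at, of a ubiquitin-binding protein that stimulates the 26S proteasome. It had 0.28, -0.48 and -0.35 in naive cells, 2.80, 1.96 and 2.16 after 7 days and -1.93 and -0.96 after 28 days. The day 7 arrays lay far above the others, the rise was 2.49 ± 0.40 (5.62-fold, adjusted p = 0.0386), and from day 7 to day 28 it fell (-3.75 ± 0.44, adjusted p = 0.0122). Other Zfand5 probe sets had day 7 differences of 2.31 ± 0.78 (adjusted p = 0.222) and 0.51 ± 0.30. The day 7 call of Zfand5 was lost on leaving out any 1 array other than naive replicate 1 (adjusted p from 0.0556 to 0.174). It was also lost with no filter (0.0766), a trended prior (0.0656), only both groups in the fit (0.0556) and the replicate block (0.122). With the spike-in term, which compares day 7 with naive replicate 1 alone, the call was lost as well. The day 28 against day 7 call of Zfand5 was lost without day 7 replicate 3 (adjusted p = 0.0718), without day 28 replicate 1 (adjusted p = 0.0861), with a trended prior (0.0541), the replicate block (0.0918) and the spike-in term (0.208). Pomp, the chaperone that closes the core, had 2.05 ± 0.75 at day 7 against naive (adjusted p = 0.263), with overlapping groups. Sem1, a small lid subunit, had 1.26 ± 0.49 and 1.12 ± 0.45, and neither gene passed. Partners went both ways: 31 of the 46 differences were above 0 (56.0% of all tested were). The probe sets of Zfand2a, for example, had -0.87, -0.70 and -0.39.

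Of the marker lists for other states and cell types, those for mitosis and B cells had members past the threshold, and those for T cells and monocytes or macrophages had none. The mitosis list had 18 of 20 genes tested, and 10 of its 24 probe sets rose at day 7 against naive, where 1.06% of all tested rose. Its median log2 ratio lay between 1.29 and 1.92 on the day 7 arrays and between -0.53 and -0.19 on the others. The B cell list had 13 of 16 genes tested, and 8 of its 20 probe sets rose at day 28 against naive, where 0.268% of all tested rose. Its medians were 2.21 and 3.27 on the day 28 arrays and between -0.18 and -0.11 elsewhere. Monocyte and macrophage markers (7 of 14 genes tested) had 0 of 9 probe sets past the threshold, and their medians were -0.80 to -0.16 on naive, -0.29 to 0.32 on day 7 and 0.19 to 0.74 on day 28 arrays. All 9 differences from naive were above 0 at day 28 (45.5% of all tested) and at day 7 (56.0% of all tested). The largest at day 28 was that of Lyz2 (4.23 ± 0.84, limma's adjusted p = 0.163). T cell markers (11 of 14 genes tested) had medians from -0.70 to 0.67 over the 8 arrays, with groups overlapping. Since ratios carry no level, the sorted cells' identity could not be read from them. The part of B cells, monocytes and macrophages in the day 28 proteasome values was not tested.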

How the data were processed

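Per the submitters' processing notes the values were made with GCRMA, with no version given. The deposited unit is a linear ratio. No label describes how each probe set was scaled. In the table, 47.9% of them had a median within 0.0015 of 1 across the arrays, which is the basis for the reading given above. Values run from 0.0153 to 117. The array design's genome build is not given in the sources used here. All 78 members matched the RefSeq table by gene ID, with 0 symbols changed.

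Log2 ratios were fitted with limma 3.58.1 in R 4.3.3, with 1 mean per group over the 8 arrays (5 residual degrees of freedom), no covariate, two-sided tests and Benjamini-Hochberg adjustment over all 13042 probe sets tested at 0.05. The code was tested on simulated data. The 64 control probe sets were left out. Members were grouped by role into 6 groups. Named were probe sets past the threshold and, per comparison and group, that with the smallest p, with the gene's other tested probe sets. Further members are named to account for the list, and some genes that are not members are named without having passed. The members and lists were chosen with earlier results of these data known. Replicate numbers are not stated to pair samples and were used only as a block in an alternative. The number of arrays limits the precision. Alternatives tried were other filters, normalizations, variance models, array weights, a replicate block, a spike-in term, other thresholds, gene means and leaving out each array.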

Additional observations from a re-analysis of the deposited data

How the results depend on the processing

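The 8 arrays limit the precision: the median SE of a member was 0.50 for day 7 minus naive and 0.56 for each comparison with day 28. Members called at day 7 against naive numbered 0, but 20 of 69, each higher, with array weights (29.0%, against 16.9% of all tested higher), and between 0 and 9 on leaving out each array. At day 28 against day 7 they numbered 0, but 12, each lower, with array weights (17.4%, against 9.87% of all tested lower), 1 with only the 2 groups in the fit, and between 0 and 3 on leaving out each array. The array weights did not fully converge and ran from 0.286 (naive replicate 1) to 9.50 (day 7 replicate 3). At day 28 against naive the number stayed 0 under every alternative tried. The members' median ran from 0.29 to 0.96 at day 7 against naive and from -0.91 to -0.22 at day 28 against day 7 on leaving out each array; under the other alternatives every median moved by less than 0.249, the SD of the array medians within groups. Quantile normalization took the median of all tested probe sets at day 7 against naive from 0.11 to near 0, and the members' median to 0.41. Psmd10 1436559_a_at at day 28 against naive turned from -0.26 to 0.041 with array weights and 0.048 with the spike-in term, and lay between -0.58 and 0.062 on leaving out each array; the cause was not tested. The deviations of same-numbered arrays correlated from -0.36 to 0.17, above 0.1 in 4 of 7 pairs, and 2 of 8 arrays were closest to their own number, so pairing by number was not shown. With the replicate block 0 members were called in each comparison and the medians were 0.58, -0.02 and -0.45, while calls over all probe sets fell from 152 to 16, from 42 to 9 and from 170 to 15.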

Other observations

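These patterns across single arrays were noticed in the data and were not tested. The highest of the 8 values lay on day 7 replicate 1 for 30 of the 69 tested members (43.5%, against 20% of all tested), on day 7 replicate 3 for 13 (18.8%, against 8.75%), on naive replicate 1 for 1 (1.45%, against 15.7%) and on day 28 replicate 1 for 0 (against 10.7%). Naive replicate 1 and day 7 replicate 2 were the lowest pair of arrays for 12 members (17.4%, against 5.08%). These were 2 probe sets each of Psmb1, Psmd4 and Psmd13, and 1 each of Psma6, Psma7, Psmc3, Psmc4, Psmd8 and Psmd12. Psmd8 had -2.13 and -2.30 on those arrays and between -0.69 and 1.69 on the other 6, and Psmd4 1418874_a_at had -1.93 and -2.00 there and between -1.0 and 0.61 elsewhere. The median within-group SD was 0.68 for members and 0.57 over all tested.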
